A study of Mus musculus with 8 samples.

Results

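Connexins are the subunits of gap junctions. Connexin proteins assemble into a hemichannel in the membrane of a cell, and hemichannels of neighbouring cells dock into a channel that passes ions and small metabolites. In the cochlea, Cx26 and Cx30 couple supporting cells and the connective tissue cells of the lateral wall. Loss of Cx26 is a known cause of deafness. In myelinating glia, Cx32 and Cx29 sit in myelin, and mutation of the Cx32 gene causes an X-linked neuropathy.

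The 9 connexin genes described here, Gja1, Gja4, Gja5, Gjb1, Gjb2, Gjb6, Gjc1, Gjc3 and Gjd2, were chosen by name as connexins of cochlear epithelium, glia, vessels and neurons. All 9 were found among the 15035 genes of the table and all 9 entered the test of 14870 genes. Bulk RNA sequencing was done on auditory nerves dissected from mice at postnatal day 21, with both cochleas of a mouse pooled, so that 1 library stands for 1 mouse. 4 libraries came from wild-type mice (libraries 1 to 4) and 4 from mice labelled as heterozygous for Mef2c, a MADS-box transcription factor gene (libraries 5 to 8). The labels give no strain, sex, litter or batch, and nothing beyond the heterozygous genotype on how the allele was made.

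The libraries held an estimated 13363365 to 21507072 counted reads. Values are normalized counts, taken here as reads per gene divided by a size factor per library. Most low values, though not all, were whole numbers of reads on that reading. Mef2c itself had 402.2 to 508.7 normalized counts in wild type and 583.3 to 735.1 in the libraries labelled heterozygote. It was higher in every one of the latter (limma-trend adjusted p 0.186 over all genes), not lower as with loss of 1 transcribed copy. Counts per gene do not show which allele the reads came from, so the genotype labels could not be checked with Mef2c. Directions below are therefore between libraries as labelled. Xist, transcribed from the inactive X chromosome, was under 100 normalized counts in wild-type library 1 and heterozygote-labelled library 5 and between 5175.3 and 8615.3 in the other 6. Fold changes of members that move by over 1.5 times without these 2 libraries are given both ways. Neuron and Schwann cell markers were present: the 14 neuronal genes summed to 215388 to 287071 normalized counts per library, and none of the 12 Schwann cell genes was at 0. Since these are bulk samples, fewer cells of a type and less RNA per cell cannot be told apart.

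3 promoter stretches are shown first because the results turn on these genes: Gjb1, the connexin with the clearest difference between genotypes, and the neighbouring pair Gjb2 and Gjb6, which varied together from library to library. Each is the 250 bases before a transcription start, 5′ to 3′ on the strand of the gene, taken from RefSeq on GRCm38.p6. Capitals mark matches on either strand to the letters GGGCGG (the GC box), ACAAAG (a core bound by SOX factors) and TATAAA (the TATA box). The Gjb1 stretch, chrX:101383482-101383731 on the plus strand, precedes the RefSeq start nearest to the coding exon, 436 bases from the first coding base. The Gjb2 stretch is chr14:57104703-57104952 and the Gjb6 stretch chr14:57133612-57133861, both on the minus strand.
Gjb1: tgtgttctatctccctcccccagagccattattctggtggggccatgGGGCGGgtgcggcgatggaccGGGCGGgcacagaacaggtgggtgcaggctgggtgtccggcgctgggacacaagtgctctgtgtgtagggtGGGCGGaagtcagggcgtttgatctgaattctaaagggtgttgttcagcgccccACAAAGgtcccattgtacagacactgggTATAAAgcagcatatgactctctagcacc
Gjb2: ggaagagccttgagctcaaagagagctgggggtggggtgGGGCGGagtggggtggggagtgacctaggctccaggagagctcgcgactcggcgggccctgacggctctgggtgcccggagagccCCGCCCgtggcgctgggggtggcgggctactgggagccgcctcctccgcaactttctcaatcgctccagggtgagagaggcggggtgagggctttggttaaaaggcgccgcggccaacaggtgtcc
Gjb6: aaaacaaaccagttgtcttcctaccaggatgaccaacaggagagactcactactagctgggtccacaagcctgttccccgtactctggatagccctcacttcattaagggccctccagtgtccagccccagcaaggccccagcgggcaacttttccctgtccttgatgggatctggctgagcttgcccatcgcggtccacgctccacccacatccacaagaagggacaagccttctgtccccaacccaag

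The Gjb1 stretch held 3 GC boxes, 1 ACAAAG and, between 29 and 24 bases before the start, 1 TATAAA. The Gjb2 stretch was rich in G and C (69.2%) and held 2 GC boxes, and the Gjb6 stretch (56.8% G and C) held none of the motifs searched. The search covered 11 windows of 300 bases (250 before to 50 after a start) for the 8 members that RefSeq's table gave, 4 of them for Gjb1. The GC box was in 5 of these 11 windows, against 35.7% of 32851 promoter windows of the mouse. ACAAAG was in 3 of 11 windows, 2 of them of Gjb1, against 18.7%, and TATAAA in 1 of 11, against 13.6%. The MEF2 motif was in 0 of 11 windows, against 3.19%, and the EGR-type motif GCGTGGGNG in 0 of 11, against 1.90%. None of the matches overlapped another, and an absent match says only that the letters are not in the window.

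Gjb1 encodes Cx32, a gap junction protein of Schwann cell and oligodendrocyte myelin. The gene lies at chrX:101376378-101385629, with its 849 coding bases in 1 exon. Wild-type libraries 1 to 4 had 1511.9, 1127.6, 1243.9 and 1292.4 normalized counts. The libraries labelled heterozygote, 5 to 8, had 807.1, 807.7, 850.0 and 858.8. Every heterozygote-labelled library lay below every wild-type library, and the 4 heterozygote-labelled values sat close together. The means were 1294 ± 161 and 830.9 ± 27.4 (SD, n = 4 each), 35.8% lower in the heterozygote-labelled libraries. On the log2(value + 1) scale this was a fold change of -0.63 (SE 0.11, 95% interval -0.86 to -0.40). With limma-trend the unadjusted p was 7.16e-05, ranked 17 among all genes, and the Benjamini-Hochberg adjusted p over all genes was 0.0626, which did not pass 0.05. A two-sided exact permutation test gave 0.0286, its lowest possible p with 4 libraries per group. Gjb1 had a ratio of 0.643 and an FDR of 4.86e-05 in the authors' deposited table.

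**Figure D1:**
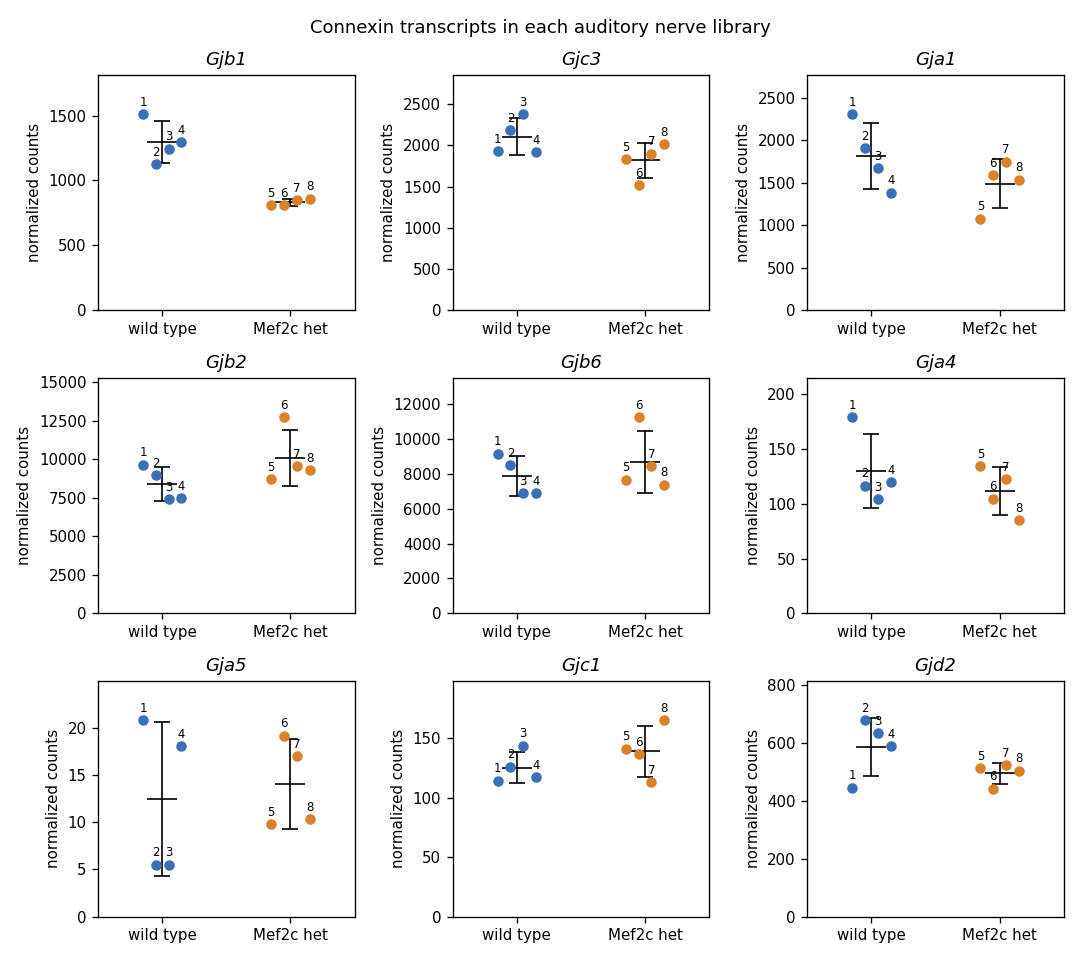
Normalized counts (vertical axes, each from 0) of the 9 connexins in the 4 wild-type libraries (blue) and the 4 libraries labelled Mef2c heterozygote (orange), with library numbers, the group mean (wide bar) and SD (whiskers). Only in the Gjb1 panel are the 2 groups apart, with 1127.6 to 1511.9 in wild type and 807.1 to 858.8 in the other group.

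Over all 14870 genes, 12 passed an adjusted p of 0.05 in limma-trend (0.0807%), and 0 of the 9 members were among them. At an unadjusted p under 0.05 there was 1 member, Gjb1, and over all genes the share was 14.1%. Gjb1 was also the 1 member whose groups did not overlap. Of all genes tested, 3.86% were lower in the heterozygote-labelled libraries with no overlap. By the FDR of the authors' deposited table, Gjb1 was again the 1 member under 0.05, as were 1.61% of the 15024 genes with a p-value there. The members' median log2 fold change was -0.21, against 0.02 for all genes, with 5 members negative and 4 positive. Gjb1 kept its sign in all 19 alternatives, with log2 fold changes from -0.69 to -0.50, and passed 0.05 in 2 of them. Those were array quality weights (limma adjusted p 0.0239) and the fit without wild-type library 3 (limma-trend adjusted p 0.0279). Without the 2 libraries low in Xist its log2 fold change was -0.54 and the limma-trend adjusted p 0.108.

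Gjc3, which encodes Cx29 of Schwann cell myelin and of the satellite glia around spiral ganglion neurons, had more transcript than Gjb1 in normalized counts and a smaller difference. Its gene is at chr5:137953461-137963098 on the minus strand. Wild type had 1931.1, 2188.2, 2381.4 and 1914.5 normalized counts, and the heterozygote-labelled libraries had 1836.8, 1521.3, 1901.7 and 2014.0. Library 8 lay within the wild-type range and the other 3 heterozygote-labelled libraries below it. The log2 fold change was -0.21 (95% interval -0.46 to 0.03, limma-trend adjusted p 0.399). It was -0.13 without heterozygote-labelled library 6.

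Whether the 2 myelin connexins differed from each other was tested on their log2 ratio within a library, chosen after their values were seen. The ratio of Gjb1 to Gjc3 was -0.70 ± 0.29 in wild type and -1.12 ± 0.14 in the heterozygote-labelled libraries (SD, n = 4 each, two-sided exact permutation p 0.0857, and 0.0857 adjusted over the 3 connexin ratios computed). The difference of -0.42 did not pass 0.05. It was -0.28 with both libraries low in Xist left out and -0.24 with the correction for transcript length.

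Of 14 oligodendrocyte genes 3 passed in limma-trend, all lower in the heterozygote-labelled libraries, as 12 of the 14 were by sign. For 9 of them the groups did not overlap, and the median log2 fold change of the 14 was -1.02. Sox10 (0.17) and Opalin (0.08) were the 2 positive ones. Mog and Mobp, 2 myelin genes of oligodendrocytes, had log2 fold changes of -1.41 and -1.47 (limma-trend adjusted p 0.0354 and 0.0495). Summed over the list, normalized counts were 118240 to 153533 in wild type and 63326 to 82912 in the heterozygote-labelled libraries, and no gene of the list was at 0. Of 12 Schwann cell genes 1 passed, Mag, which also marks oligodendrocyte myelin, at -0.94 on the log2 scale (limma-trend adjusted p 0.0199). The list had a median of -0.14 and sums of 225870 to 264799 against 170708 to 202410. Of 9 satellite and non-myelinating glia genes 0 passed in limma-trend (2 at an unadjusted p under 0.05), with a median of -0.09 and sums of 54065 to 82805 against 55511 to 66076, with 4 positive and 5 negative, and Fabp7 and L1cam had log2 fold changes of -1.20 and 0.43. The part of oligodendrocyte content in the Gjb1 values was not tested.

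Gja1 encodes Cx43, the connexin of astrocytes, fibroblasts and osteoblasts, found at chr10:56377330-56402513. Wild type had 2308.7, 1903.6, 1672.9 and 1381.8 normalized counts, and the heterozygote-labelled libraries had 1075.4, 1589.3, 1746.2 and 1535.8. Library 5 was the lowest and wild-type library 1 the highest, and the other 6 libraries overlapped. The log2 fold change was -0.29 (95% interval -0.67 to 0.09, limma-trend adjusted p 0.458). Libraries 1 and 5 are the 2 low in Xist, and without them it was -0.02. Of 10 astrocyte genes 0 passed in limma-trend (6 at an unadjusted p under 0.05) and 9 were negative, with a median of -0.48 and sums of 24598 to 35024 in wild type against 13869 to 22326. Gfap, the intermediate filament of astrocytes, was at -0.99 on the log2 scale and Mlc1 at -1.05 (limma-trend adjusted p 0.160 and 0.0632). The fibroblast list had 0 of 10 past the threshold (3 unadjusted) and a median of 0.32 (sums 35163 to 71578 against 50138 to 67331), with Col1a1 at 1.14 and Igf2 at 0.48. For 10 osteoblast and osteocyte genes these were 0 passed (4 unadjusted) and 0.49 (sums 44434 to 52609 against 45761 to 61292), with Alpl at 0.88 and Ibsp at 1.09. How much each of these cell classes gave to Gja1 was not tested.

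Gjb2 (Cx26) and Gjb6 (Cx30), which form mixed channels in cochlear supporting and lateral wall cells, were by far the most abundant connexins. They lie side by side on the minus strand, Gjb2 at chr14:57098600-57104702 and Gjb6 at chr14:57123303-57133611, with 18600 bases between the genes. Gjb2 had 9655.4, 8955.6, 7409.1 and 7485.1 normalized counts in wild type, and the heterozygote-labelled libraries had 8710.4, 12735.8, 9570.8 and 9308.5. For Gjb6 the values were 9170.7, 8518.2, 6903.6 and 6909.9 in wild type and 7662.4, 11253.2, 8462.3 and 7382.2 in the heterozygote-labelled libraries. Library 6 stood highest in both genes, wild-type libraries 3 and 4 lowest, and the groups overlapped. Gjb2 had a log2 fold change of 0.26 (95% interval -0.03 to 0.55) and Gjb6 of 0.13 (-0.18 to 0.45), at limma-trend adjusted p 0.393 and 0.683. Without library 6 they were 0.14 and 0.002, and without the 2 libraries low in Xist 0.40 and 0.26, in no case past the threshold.

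Across the 8 libraries Gjb2 and Gjb6 rose and fell together. Pearson's r of their log2 values was 0.94 (exact permutation p 0.000868, 0.0313 after Benjamini-Hochberg adjustment over the 36 pairs of members) and Spearman's rho was 0.88 (exact permutation p 0.00724, adjusted 0.261). Leaving out the 2 libraries farthest from the median of Gjb2 gave r of 0.77. It was 0.94 without the 2 libraries low in Xist (exact permutation p 0.00972) and 0.98 on deviations from the genotype means. With each library left out in turn it ran from 0.83 to 0.98. By Pearson's r this was the 1 pair of 36 that passed adjustment (7 unadjusted), and by Spearman's rho 0 pairs passed (3 unadjusted). All 8 points share the size factor of their library.

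**Figure D2:**
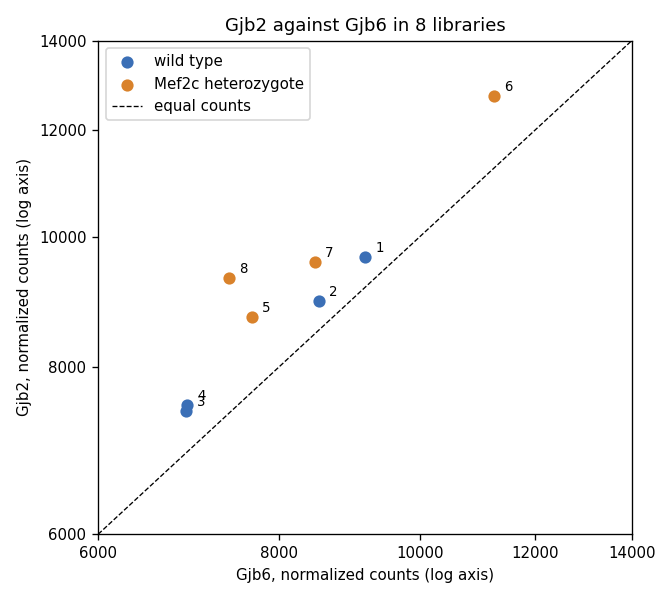
Normalized counts of Gjb2 (vertical, log axis) against Gjb6 (horizontal, log axis) in the 8 libraries, numbered, with a dashed line of equal counts. The points run parallel to the line from libraries 3 and 4 to library 6, and the heterozygote-labelled libraries (orange) lie farther above it than the wild-type libraries (blue).

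The balance between the 2 genes separated the groups although neither gene did. The log2 ratio of Gjb2 to Gjb6 was 0.074, 0.072, 0.10 and 0.12 in wild type and 0.18, 0.18, 0.18 and 0.33 in the heterozygote-labelled libraries. All 4 of the latter lay above all wild-type values, with library 8 far above the other 3. The means were 0.091 ± 0.021 and 0.22 ± 0.077 (SD, n = 4 each), a difference of 0.13. A two-sided exact permutation test gave 0.0286, its lowest possible p. Adjusted over the 3 connexin ratios computed, the exact permutation p was 0.0857, which did not pass. Without library 8 the difference was 0.089 and without the 2 libraries low in Xist 0.13, where 3 against 3 cannot go below an exact permutation p of 0.10. With the correction for transcript length it was 0.10 and with quantile normalization 0.12 (exact permutation p 0.0286 and 0.0571).

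Of 15 cochlear supporting and lateral wall genes other than connexins, 0 passed in limma-trend (3 unadjusted), 8 were positive and 7 negative, and the median log2 fold change was 0.18. They summed to 162467 to 200806 normalized counts in wild type and 175476 to 207154 in the heterozygote-labelled libraries. Coch alone had means of 116820 in wild type and 132920 in the heterozygote-labelled libraries, so the sums follow mostly this gene. Library 6 had 175476, the lowest sum of its group. Otog, which encodes a protein of the acellular membranes over the sensory epithelium, was at 1.07 on the log2 scale and Emilin2 at -1.01 (limma-trend adjusted p 0.112 and 0.329). Hair cell genes were present as well, 8 of 8, with 0 past the threshold (3 unadjusted) and a median of -0.01. Their sums were 15098 to 22861 against 12781 to 16877. Pvalb, with means of 14035 in wild type and 9426 in the heterozygote-labelled libraries, makes up most of these sums. Of these 8 genes 4 were positive and 4 negative. Ocm and Slc26a5, the 2 with the largest absolute log2 fold change, had -1.36 and -0.81, and Otof and Myo7a, named after their values were seen, had 0.54 and 0.38. The share of these cells in the Gjb2 and Gjb6 values was not tested.

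Gja4 (Cx37) and Gja5 (Cx40) are connexins of arterial endothelium. Gja4, at chr4:127311421-127314039, had 179.1, 116.7, 104.5 and 119.6 normalized counts in wild type and 134.7, 104.6, 122.5 and 85.3 in the heterozygote-labelled libraries. Wild-type library 1 was the highest and the rest were mixed. Its log2 fold change was -0.21 (95% interval -0.74 to 0.33, limma-trend adjusted p 0.709), and -0.04 without wild-type library 1. Gja5 was the scarcest member, at an estimated 6 to 22 reads per library. It had 20.8, 5.5, 5.5 and 18.1 normalized counts in wild type and 9.8, 19.2, 17.0 and 10.3 in the heterozygote-labelled libraries. High and low libraries occurred in both groups, and its log2 fold change of 0.33 (limma-trend adjusted p 0.817) had the widest interval of the members, with an upper bound of 1.67. Leaving out wild-type library 2 gave 0.06 and leaving out both libraries low in Xist gave 0.78. The annotated exons of Gja5 (chr3:96904693-97077416) also overlap those of Gpr89 on the opposite strand, which had 171.9 ± 51.0 and 219.5 ± 33.5 normalized counts (SD, n = 4 each), and it is not stated whether counting used the strand.

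Among 11 endothelial genes 0 passed in limma-trend (3 unadjusted), with a median log2 fold change of 0.03 and sums of 8548 to 10753 in wild type against 7652 to 8367. Of these 6 were positive and 5 negative, and Emcn and Egfl7 had log2 fold changes of -0.71 and -0.54. Among 10 arterial genes 0 passed (0 unadjusted), with a median of 0.07 and sums of 7912 to 14069 against 8244 to 9799, and Dll4 and Mgp had 0.42 and -0.30. Gjc1 (Cx45), a connexin of smooth muscle and pericytes at chr11:102799579-102819700, had 114.2, 126.2, 143.9 and 117.2 normalized counts in wild type and 141.2, 136.8, 113.1 and 165.0 in the heterozygote-labelled libraries. Library 8 was the highest and library 7 the lowest, both labelled heterozygote. The log2 fold change of Gjc1 was 0.14 (95% interval -0.30 to 0.58, limma-trend adjusted p 0.762), 0.06 without library 8 and 0.09 when both libraries low in Xist were left out. Of 11 pericyte and smooth muscle genes 0 passed in limma-trend (4 unadjusted), with a median of 0.05 and sums of 8518 to 11492 against 10129 to 10613. Of these genes 7 were positive and 4 negative. Acta2 and Des, the 2 with the largest absolute log2 fold change, each had -0.47. Cspg4 (0.36) and Notch3 (0.26), named after their values were seen, were among the positive ones (limma-trend adjusted p 0.327 and 0.375).

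Gjd2 (Cx36) forms the electrical synapses of neurons. Its gene, at chr2:114009601-114013619, had 446.4, 678.9, 635.2 and 590.6 normalized counts in wild type and 512.7, 442.6, 524.0 and 504.4 in the heterozygote-labelled libraries. Wild-type library 1 lay among the heterozygote-labelled libraries and the other 3 wild-type libraries above all of them. The log2 fold change was -0.23 (95% interval -0.55 to 0.08, limma-trend adjusted p 0.476), and -0.37 without the 2 libraries low in Xist (limma-trend adjusted p 0.269). Without wild-type library 2 it was -0.16. The exons of Gjd2 overlap those of A530058N18Rik on the opposite strand, which had 215.0 ± 42.2 and 207.7 ± 41.2 normalized counts (SD, n = 4 each). Of 14 neuronal genes 0 passed in limma-trend (0 unadjusted), with a median of -0.02 and sums of 215388 to 287071 in wild type against 233199 to 279009. By sign 6 were positive and 8 negative, and Syt1 and Gap43 had log2 fold changes of 0.42 and -0.47.

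**Figure D3:**
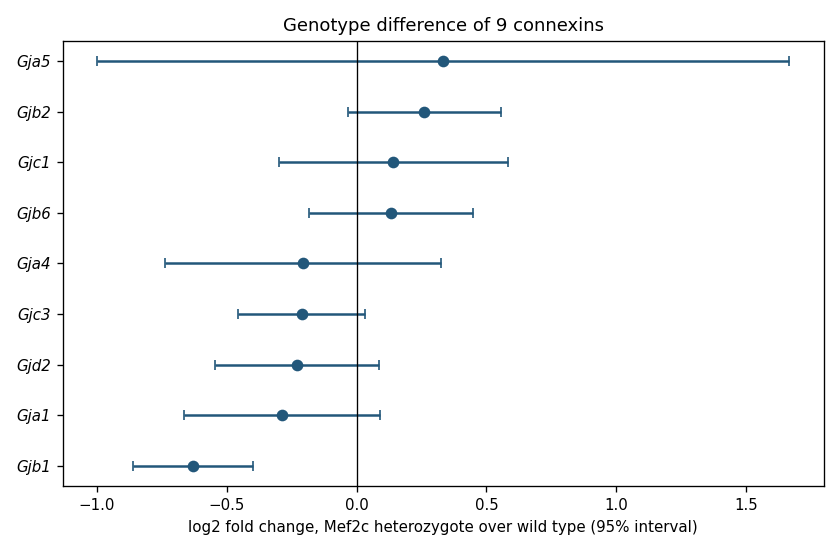
Log2 fold change of the libraries labelled Mef2c heterozygote over wild type (horizontal axis) for the 9 connexins, with 95% intervals from limma-trend, n = 4 per group. The interval of Gjb1 (-0.86 to -0.40) lies below 0, and those of the other 8 hold 0.

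Levels of different genes were compared per kilobase of the longest annotated transcript. In normalized counts per kilobase over all 8 libraries, Gjb6 had 3935 ± 688 and Gjb2 3836 ± 690 (SD, n = 8). Their ranges overlapped, and Gjb6 was the higher in 7 of 8 libraries, all but library 8. By group, Gjb6 had 3741 ± 546 and Gjb2 3481 ± 462 in wild type (SD, n = 4 each). In the heterozygote-labelled libraries they had 4128 ± 840 and 4190 ± 751 (SD, n = 4 each). By this length the order of the 2 means differed between the groups. Gjb1 followed with 670.3 ± 170.1, Gjc3 with 490.0 ± 63.1 and Gja1 with 424.7 ± 93.6 (SD, n = 8 each), and each of these overlapped the next. Gjd2 came after them with 188.2 ± 29.8, Gja4 with 71.7 ± 16.5, Gjc1 with 38.7 ± 5.27 and Gja5 with 3.62 ± 1.70 (SD, n = 8 each), none overlapping its neighbour in the order. With the median transcript length in place of the longest, Gja1 and Gjc3 stood above Gjb1 in both groups. Gjb6 then stood above Gjb2 in both, with means of 5615 against 3481 in wild type and 6196 against 4190 in the heterozygote-labelled libraries. In normalized counts without a length, Gjb2 was above Gjb6 in every library (log2 ratio 0.072 to 0.33). The order of Gjb2 and Gjb6 therefore depends on the length used.

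Gjb2 and Gjb6 made up 78.2%, 78.8%, 74.9% and 76.5% of the summed level per kilobase of the 9 connexins in wild type. In the heterozygote-labelled libraries they made up 82.4%, 87.2%, 82.0% and 81.1%, above every wild-type library. The means were 77.1% ± 1.78 and 83.2% ± 2.73 (SD, n = 4 each). The share of Gjb1 was 8.78% ± 1.10 in wild type and 5.35% ± 0.807 in the heterozygote-labelled libraries, that of Gjc3 5.70% ± 1.02 and 4.68% ± 1.08, and that of Gja1 4.96% ± 0.535 and 3.86% ± 0.723 (SD, n = 4 each). Gjd2 made up 2.22% ± 0.523 and 1.77% ± 0.345 (SD, n = 4 each). Gja4, Gjc1 and Gja5 were each under 1% in every library. As shares of 1 sum they move together by construction, and no test was run on them.

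**Figure D4:**
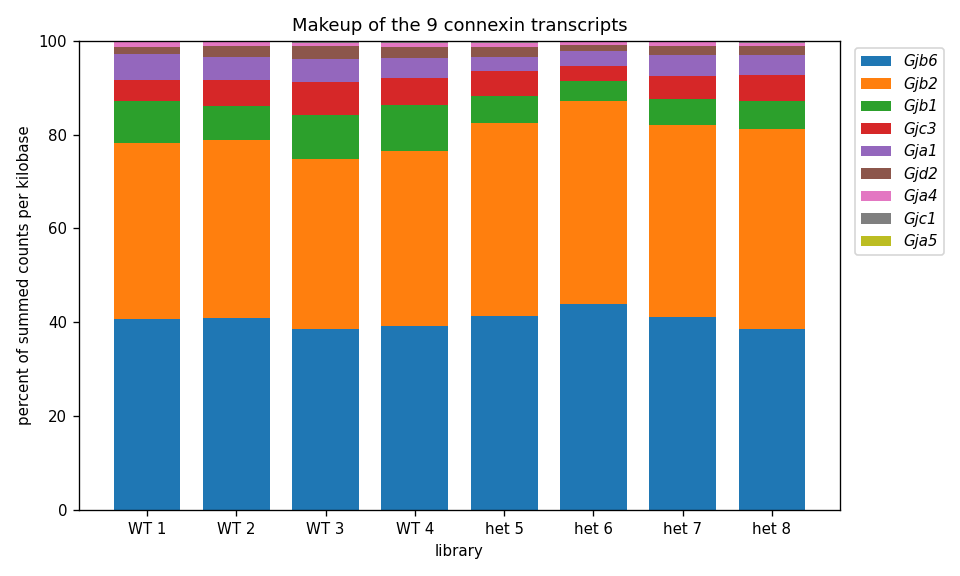
Percent of the summed normalized counts per kilobase (vertical axis) that each of the 9 connexins takes in each library (horizontal axis, WT for wild type and het for Mef2c heterozygote). Gjb6 and Gjb2 together reach 74.9% to 78.8% in the wild-type libraries and 81.1% to 87.2% in the others, and Gja5 is too scarce to see.

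Over the 36 pairs of members, Pearson's r on log2 values ran from -0.78 to 0.94 with a median of -0.007. The 2 arterial connexins, Gja4 and Gja5, had r of 0.39 (rho 0.41, exact permutation p 0.356 and 0.315), which was 0.19 without the 2 libraries low in Xist and 0.10 without the 2 farthest in Gja4. The 2 myelin connexins, Gjb1 and Gjc3, had r of 0.50 (rho 0.62, exact permutation p 0.218 and 0.115), which was 0.65 with the libraries low in Xist left out and 0.85 without the 2 farthest in Gjb1. Gjc3 and Gjd2 had 0.77 (rho 0.62, exact permutation p 0.0219 and 0.115), which was 0.64 without the 2 libraries farthest in Gjc3 and did not pass adjustment over the 36 pairs (adjusted p of the exact permutation test 0.208). The most negative r, between Gjb2 and Gjc3 at -0.78 (rho -0.50, exact permutation p 0.0350 and 0.216, adjusted 0.208 and 0.547), was 0.14 without the 2 libraries farthest in Gjb2, so it rests on them.

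**Figure D5:**
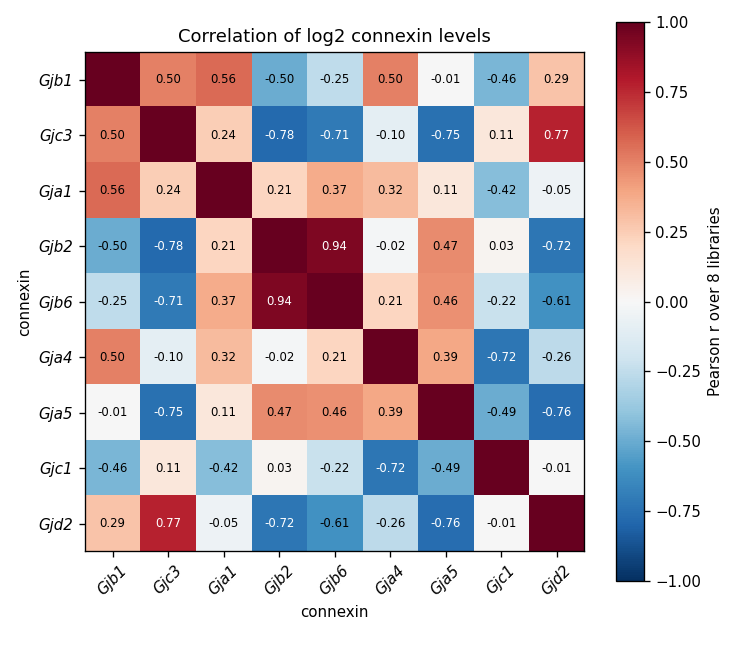
Pearson's r over the 8 libraries (colour, number in each cell) between the log2 levels of each pair of the 9 connexins (both axes). The pair Gjb2 and Gjb6 has the highest value, 0.94, and Gjb2 with Gjc3 the lowest, -0.78.

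The genes whose log2 levels followed a member most closely over the 8 libraries were named by Pearson's r as a description. For Gjb1 these were Ppa2, Septin7 and Paip2 (r 0.98, 0.98 and 0.97). For Gjb2 they were Bmp7, Aebp1 and Ppp1r1a (0.99, 0.99 and 0.97), with Gjb6 at rank 21 of 13355 genes, and for Gjb6 Slc31a2, Prkag2 and Gstm2 (0.98, 0.97 and 0.96), with Gjb2 at rank 17. Gjc3 was followed by 2610002M06Rik, Slc44a1 and Lipt2 (0.96, 0.96 and 0.93) and Gja1 by Rab31, Zfp51 and Hnmt (each 0.98). For Gja4 they were Slc9a3r2, Ube2s and Acvrl1 (0.98, 0.98 and 0.97), and those for Gja5 included Zfp395 (0.95). Gjc1 was followed by Gpatch2l, Zfp865 and Atrn (0.97, 0.95 and 0.95) and Gjd2 by Lrrtm3, Dipk1b and Bbs12 (0.93, 0.92 and 0.91). Among so many genes, high values of r over 8 libraries are common.

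Other genes of gap junction biology were read from the same fit. Of 17 genes for connexin scaffolds, trafficking and turnover, 0 passed in either direction, 13 were positive and 4 negative, and the median log2 fold change was 0.09. Nedd4, a ubiquitin ligase that acts on Cx43, had 0.25 (limma-trend adjusted p 0.310) and Prkca, a kinase that phosphorylates it, 0.30 (0.382). Of 6 pannexins and other large-pore channels in the table, 0 passed, and the median was 0.02. Lrrc8a, a subunit of the volume-regulated anion channel, had 0.23 and Calhm5 -0.25 (limma-trend adjusted p 0.349 and 0.663). At an unadjusted p under 0.05 there was 1 scaffold gene and 2 large-pore channel genes.

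Markers of neutrophils and of macrophages and microglia were read from the fit as well. The 5 neutrophil genes in the table had a median log2 fold change of 3.62 and sums of 117.2 to 2363 normalized counts in wild type against 668.3 to 6072, with 0 past the limma-trend threshold (4 unadjusted). S100a8 was at 4.09 and Ngp at 3.73 on the log2 scale (limma-trend adjusted p 0.0763 and 0.0920). For 10 macrophage and microglia genes the median was -0.15, 0 passed in limma-trend (2 unadjusted), and the sums were 3848 to 5909 against 3439 to 4642, with Trem2 at -0.78 and P2ry12 at -0.63. Their part in the connexin values was not tested.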

How the data were processed

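RNA of dissected auditory nerves was made into directional poly(A) libraries, per the labels' protocols. The submitters' processing notes name STAR, Partek, DESeq2 and the build mm10, without versions or roles. The authors deposited a table with a signal value per gene and library, rounded to 1 decimal. By most of its low values, though not all, it was taken as a read count over a size factor. For heterozygote against wild type, the authors' deposited columns give a p-value, an FDR, a ratio and a log2 ratio, and a score (the fold change with its sign), which went unused.

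The value of 1 read was estimated as the step of which 87.8% to 91.7% of values under 1000 are whole multiples (within rounding to 1 decimal). Whole reads would need 95%, and count models were therefore left out. The test took genes that reached 10 normalized counts in 4 or more libraries. It was run on log2(value + 1) with limma-trend (R 4.3.3, limma 3.58.1), on all 8 libraries, with Benjamini-Hochberg adjustment over all genes. Fold changes on that scale understate low genes. Single values used two-sided exact permutation tests (Python 3.11.15, scipy 1.17.1). Replicate numbers are not shared between groups, so nothing was paired. Alternatives were pseudocounts of 0.1 and 10, other filters and scalings, a term for low Xist, leaving out both libraries with low Xist, a loess correction for transcript length, array quality weights, limma without trend, and each library left out. On simulated data of 14870 genes the fit recovered 91% of genes changed 4-fold and 66% of those changed 2-fold. It also called 9 unchanged genes. The simulated noise was independent between genes, without differences of whole libraries, so these rates need not hold for the real libraries. Genes named from a list were those past the threshold or, failing any, the 2 with the largest absolute fold change and a mean of at least 50 normalized counts. Genes named as most like a member were the 3 with the highest r and that mean. Positions and lengths came from GENCODE M21 (GRCm38, the same assembly as mm10). The members and lists were chosen with earlier results of these data known. The labels call the replicates separate mice, and some genes, and 1 of the 3 log2 ratios computed between connexins, are not reported here.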

Additional observations from a re-analysis of the deposited data

Results flagged for a closer look

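In 22 groups of 4 libraries, those of the 9 connexins and of 2 log2 ratios between them in each genotype, 1 library stood far from the other 3 of its group in 1 case, and chance gives 1.1. The log2 ratio of Gjb2 to Gjb6 in the libraries labelled heterozygote was 0.33 in library 8 and 0.18 in each of the other 3, a gap of 0.953 of the whole range. Library 8 had 9308.5 normalized counts of Gjb2 and 7382.2 of Gjb6, the lowest Gjb6 value of its group. The cause was not tested.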

How the results depend on the processing

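All 9 connexins kept the sign of their log2 fold change in every alternative that was run. The number past an adjusted p of 0.05 with limma was 0 and became 1 (Gjb1) with array quality weights, and ran from 0 to 1 when single libraries were left out. Over all genes the count of 12 became 7 with quantile normalization, 27 with the correction for transcript length, 96 with array quality weights and 0 with limma without trend (where Gjb1 had an adjusted p of 0.231). With single libraries left out it ran from 0 (leaving out library 2, 4 or 8) to 221 (leaving out library 3), and at an unadjusted p under 0.05 it was 1794 in the fit without trend and 1919, 1451 and 1180 in those 3. It was 7 without library 5 and 6 without library 7. The difference in the log2 ratio of Gjb2 to Gjb6 was 0.121 with quantile normalization and 0.134 without the 2 libraries low in Xist, in both cases no longer past 0.05 by the exact permutation test, the second because 3 against 3 cannot reach it. With the median transcript length, the share of Gjb2 and Gjb6 was 74.2% in wild type and 80.3% in the heterozygote-labelled libraries. Gja5 had no value with the mean filter of 50 normalized counts. Except where named, the cause was not tested. Gja5 rests on an estimated 6 to 22 reads per library.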
